A study of Homo sapiens with 4 samples.

Results

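The IFIT genes (interferon-induced proteins with tetratricopeptide repeats) IFIT1, IFIT2, IFIT3 and IFIT5 were taken by symbol from the 57820 gene IDs of the count tables, and all 4 were found (ENSG00000185745.8, ENSG00000119922.7, ENSG00000119917.9 and ENSG00000152778.7). Their gene reads and splice junction reads are described in 4 libraries of HEK293T, a human embryonic kidney cell line, each transfected with a plasmid for the splicing factor SF3B1: the wild-type protein (WT) or the substitution R625H, K666T or K700E. According to the labels, R625H and K666T received 1000 ng of plasmid each and K700E 2000 ng; the amount used for WT is not stated there. Each vector has 1 library, so no difference below has a replicate check, none was tested between conditions, and intervals (95%) cover counting error only. In comparisons with K700E the substitution and the plasmid amount cannot be told apart, and since the amount for WT is unknown the same may hold for any comparison with WT.

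IFIT genes are transcribed when a cell senses foreign nucleic acid or receives interferon, through the factor IRF3 and through ISGF3, the complex that binds the interferon-stimulated response element. Their proteins are built of tetratricopeptide repeats and bind RNA or one another. IFIT1 binds RNA whose cap lacks the ribose methylation of host mRNA and blocks its translation, IFIT3 binds and stabilises IFIT1, IFIT2 joins complexes with both and has been linked to cell death, and IFIT5 binds RNA with an uncapped triphosphate end.

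The 4 genes lie in 1 cluster on chromosome 10, on the plus strand. The start regions of the genes in the RefSeq promoter table (GRCh38.p14) are shown first because IFIT1, IFIT3 and IFIT5 share a sequence there that the choice of genes did not use; that of IFIT2 was not analysed here. Each window runs from 160 bases before the listed start to 10 bases after it, and capitals mark the core GAAANNGAAA of the interferon-stimulated response element, searched on both strands and here always read as its reverse complement; no 2 matches overlap.

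IFIT1 (chr10:89392463-89392632, plus strand): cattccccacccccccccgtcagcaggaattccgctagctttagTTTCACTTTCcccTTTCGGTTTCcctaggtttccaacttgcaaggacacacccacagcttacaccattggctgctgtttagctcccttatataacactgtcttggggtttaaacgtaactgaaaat
IFIT3, upstream first exon (chr10:89327837-89328006, plus strand): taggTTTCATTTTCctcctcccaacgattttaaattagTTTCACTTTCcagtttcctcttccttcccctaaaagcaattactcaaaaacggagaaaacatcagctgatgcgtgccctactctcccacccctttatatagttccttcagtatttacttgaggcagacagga
IFIT3, downstream first exon (chr10:89332369-89332538, plus strand): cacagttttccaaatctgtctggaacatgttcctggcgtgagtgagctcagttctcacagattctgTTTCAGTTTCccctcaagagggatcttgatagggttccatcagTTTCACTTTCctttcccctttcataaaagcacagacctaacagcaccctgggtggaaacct
IFIT5 (chr10:89414408-89414577, plus strand): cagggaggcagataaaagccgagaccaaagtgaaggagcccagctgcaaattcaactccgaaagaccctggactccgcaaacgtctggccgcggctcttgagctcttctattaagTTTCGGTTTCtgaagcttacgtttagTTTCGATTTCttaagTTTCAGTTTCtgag
IFIT1B (chr10:89377896-89378065, plus strand): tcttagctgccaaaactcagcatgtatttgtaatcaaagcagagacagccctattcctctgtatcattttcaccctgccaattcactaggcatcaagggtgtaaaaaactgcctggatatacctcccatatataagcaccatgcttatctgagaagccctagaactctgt

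Every window shown for a member held at least 2 matches, at 116 and 103 bases before the start in IFIT1, at 156 and 122 bases before the upstream start of IFIT3, at 94 and 51 bases before its downstream start, and at 45, 19 and 4 bases before that of IFIT5. Of all 35116 windows of the table, each of 300 bases (250 before and 50 after the start), 3.57% held 1 match or more and 0.259% held at least 2. The window of IFIT1B, a paralogue between IFIT3 and IFIT1, held none. IFIT1B had 10 gene reads in K700E, 3 in K666T, 1 in R625H and 0 in WT, so it was at or near the limit of detection throughout.

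IFIT1, IFIT2 and IFIT3 were much higher in each mutant library than in WT and highest by far in K700E, whereas IFIT5 started from the highest level per length in WT and stood least above WT in the mutants. IFIT1, the sensor of incompletely capped RNA, reached 1192 CPM (gene reads per 1000000 gene reads of the library; Poisson interval 1185 to 1200) in K700E, with 204.3 (201.2 to 207.4) for R625H, 141.6 (139.1 to 144.1) for K666T and 29.7 (28.6 to 30.9) for WT. In bulk RNA, more cells with a transcript and more transcript per cell cannot be told apart. K700E stood alone at the top, and R625H and K666T lay between it and WT. In these libraries IFIT1 went from place 7058 among 14847 genes ordered by CPM in WT to 844, 1483 and 63 in R625H, K666T and K700E. The fold over WT was 40.1 (38.6 to 41.7) in K700E, 6.87 (6.6 to 7.16) in R625H and 4.76 (4.57 to 4.97) in K666T.

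IFIT2 was read at 403.8 CPM in K700E (33528 reads), 56.1 in R625H (4618), 34.8 in K666T (3005) and 5.31 in WT (483). These are 76.0-fold (69.5 to 83.4), 10.6-fold (9.62 to 11.6) and 6.55-fold (5.95 to 7.22) the WT level. IFIT3, the partner that stabilises IFIT1, stood at 327.0 CPM in K700E (27146 reads), 51.5 in R625H (4237), 33.2 in K666T (2869) and 4.29 in WT (390). Its folds over WT were 76.2 (69.0 to 84.5), 12.0 (10.8 to 13.4) and 7.74 (6.96 to 8.63), and the intervals of IFIT2 and IFIT3 overlapped in each mutant library. Both were rarely read in WT, at places 11418 and 11798 of 14847 by CPM and at places 312 and 429 in K700E.

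IFIT5, which binds triphosphate RNA, was at 155.9 CPM in K700E (12940 reads), 63.7 in R625H (5239), 59.6 in K666T (5145) and 36.4 in WT (3307). The folds over WT were 4.29 (4.12 to 4.45), 1.75 (1.68 to 1.83) and 1.64 (1.57 to 1.71), below those of the other 3 members in every mutant library. In all 4 genes the order of the libraries was WT, K666T, R625H and K700E from low to high, and the Poisson intervals of neighbouring libraries did not overlap.

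**Figure D1:**
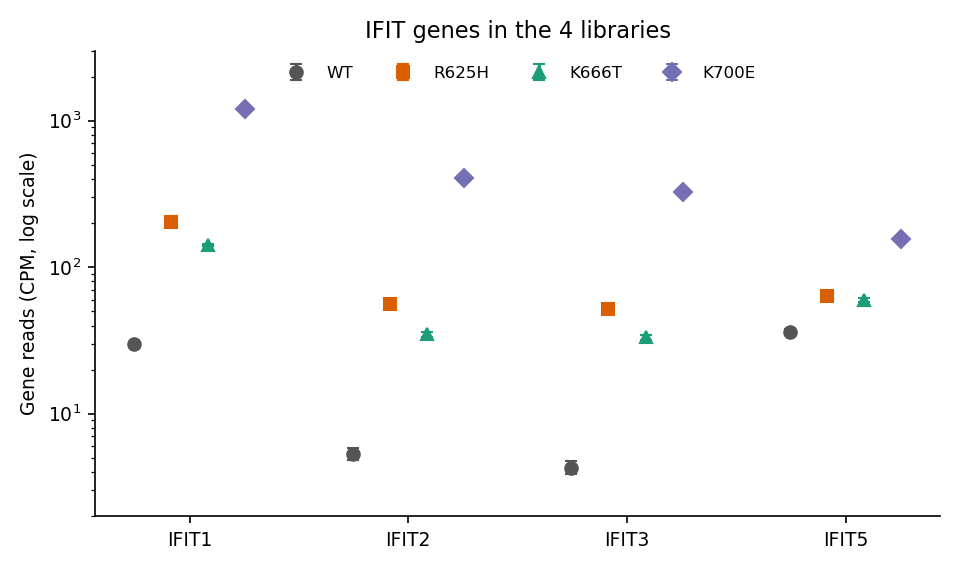
CPM (log scale) of each IFIT gene in the 4 libraries, 1 point per library, with Poisson 95% intervals where these are wider than the symbol. K700E is the highest point of every gene, and IFIT5 spans the narrowest range, 36.4 to 155.9 CPM.

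For the comparison with all genes that reached 1 CPM in some library, log2 ratios of CPM were computed with a prior count of 10 added. A gene is counted as higher at a log2 ratio of at least 1, that is 2-fold. In R625H 3 of the 4 members passed this against WT, beside 0.653% of all genes; the values were 2.78 for IFIT1, 3.37 for IFIT2, 3.55 for IFIT3 and 0.81 for IFIT5. In K666T again 3 of 4 passed, beside 0.694% of all genes, with 2.25, 2.69, 2.92 and 0.71 in the same order. All 4 passed in K700E, beside 1.31% of all genes, with 5.32, 6.22, 6.21 and 2.1. The median of the members was 3.07, 2.47 and 5.77, that of all genes -0.017, -0.002 and 0.0. IFIT3 and IFIT2 held places 2 and 4 of 14847 by log2 ratio in R625H, 3 and 6 in K666T and 5 and 4 in K700E, and IFIT1 held places 9, 13 and 10. IFIT5 was at places 140, 201 and 65.

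**Figure D2:**
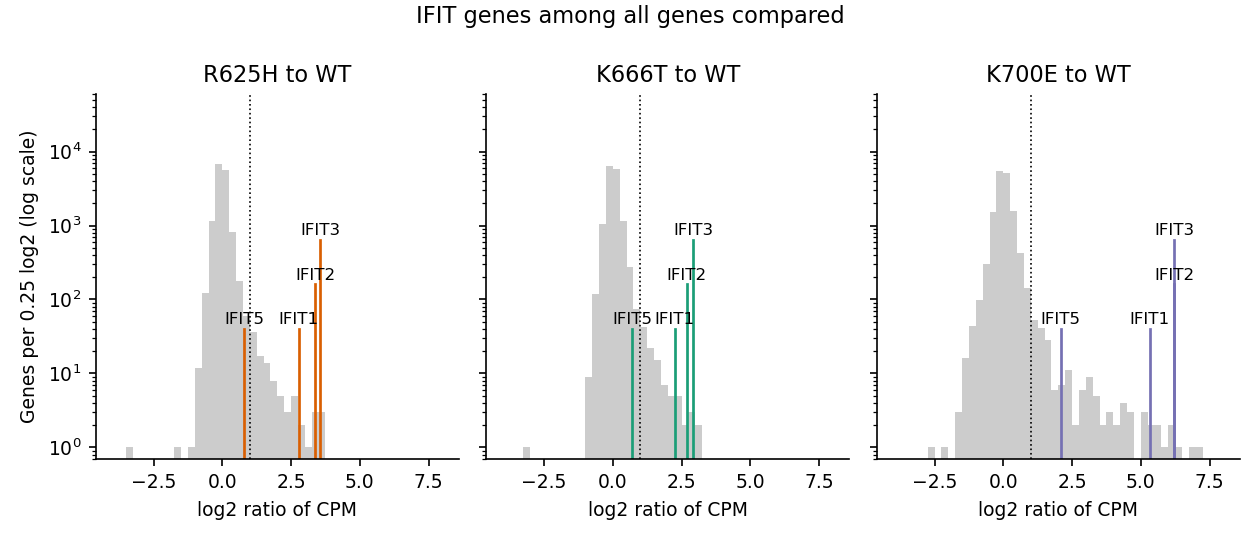
Histograms of the log2 ratio of CPM to WT for the 14847 genes compared (x axis; number of genes per bin of 0.25 on a log scale), with lines at the IFIT genes and a dotted line at 2-fold. IFIT1, IFIT2 and IFIT3 lie in the far right tail in each mutant library, and IFIT5 is left of the 2-fold line in R625H and K666T and right of it in K700E.

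In all 4 genes R625H and K666T, of equal plasmid amount, lay closer to each other than either did to K700E. R625H was above K666T by log2 0.53 in IFIT1, 0.69 in IFIT2, 0.63 in IFIT3 and 0.1 in IFIT5, and none of the 4 reached 2-fold, beside 0.0337% of all genes. K700E was above R625H by 2.54, 2.84, 2.66 and 1.29, all 4 at least 2-fold, beside 0.647% of all genes. It was above K666T by 3.07, 3.53, 3.29 and 1.39, again 4 of 4, beside 0.599% of all genes. The comparisons with WT share the WT library, so their values are given side by side only.

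The make-up of the family's reads differed between the libraries. In WT, IFIT5 held 48.0% (Wilson interval 46.9 to 49.2) of the 6883 reads of the 4 genes. Its part was 7.5% (7.37 to 7.62) of 172603 reads in K700E, 17.0% (16.5 to 17.4) of 30895 in R625H and 22.1% (21.6 to 22.7) of 23249 in K666T. The share of IFIT1 was 57.4% in K700E, 54.4% in R625H, 52.6% in K666T and 39.3% in WT. Together the 4 genes took 0.208% of all gene reads in K700E, 0.0376% in R625H, 0.0269% in K666T and 0.00757% in WT.

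Levels of different genes were compared per exon length (RPKM, CPM per kilobase of all annotated exons). In WT the order was IFIT5 at 9.06 RPKM, IFIT1 at 6.44, IFIT3 at 1.62 and IFIT2 at 1.3. In R625H IFIT1 led at 44.3 RPKM, before IFIT3 at 19.5, IFIT5 at 15.9 and IFIT2 at 13.7. K666T had IFIT1 at 30.7, IFIT5 at 14.8, IFIT3 at 12.6 and IFIT2 at 8.48 RPKM, and K700E had IFIT1 at 258.5, IFIT3 at 123.8, IFIT2 at 98.5 and IFIT5 at 38.8. IFIT5 thus stood first in WT and last in K700E. Poisson intervals of neighbours in each order did not overlap. The exon lengths, unions over all transcript models, were 4613 nt for IFIT1, 4101 for IFIT2, 2640 for IFIT3 and 4015 for IFIT5.

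Splice junctions gave a second count of the same libraries. The files list 68 junctions inside the 4 genes, with 50999 uniquely mapped reads in all; 7 of them match introns of GENCODE release 29. Scaled to all junction reads of a library, the fold over WT in R625H, K666T and K700E was 7.76, 5.25 and 67.7 (62.0 to 74.2) for IFIT1, 8.37, 5.11 and 96.3 (72.5 to 130.8) for IFIT2, 13.0, 7.94 and 88.9 (63.8 to 127.9) for IFIT3 and 1.85, 1.74 and 5.94 (5.22 to 6.78) for IFIT5. The order of the members was the same as from gene reads in that IFIT5 was lowest in each mutant library, but in K700E the folds of all 4 members were above those from gene reads, with intervals that did not overlap for IFIT1 and IFIT5 and did for IFIT2 and IFIT3. IFIT2 went the other way in R625H, 8.37 (6.18 to 11.6) from junctions against 10.6 from gene reads, and in K666T, 5.11 (3.74 to 7.13) against 6.55, with overlapping intervals.

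IFIT1 showed this most clearly in its spliced reads. It had 33.1 junction reads per 100 gene reads in K700E, 20.7 in R625H, 20 in K666T and 18.1 in WT. The value in K700E was 1.83 times that in WT (1.67 to 2.0). For the background, the quotient was taken on matched introns only, over 12123 genes with at least 3 of them and 30 junction reads in each library. Its median was 1.07, with a 5th to 95th percentile of 0.885 to 1.35, and 0.503% of these genes reached the value of IFIT1. IFIT5 had 8.29 junction reads per 100 gene reads in WT and 12.4 in K700E, a quotient of 1.5 (1.32 to 1.71) reached by 2.19% of the genes. IFIT2 (9.94 in WT, 13.6 in K700E) and IFIT3 (8.97 and 11.3) had quotients of 1.37 (1.03 to 1.86) and 1.26 (0.905 to 1.81), reached by 4.44 and 8.91% of the genes. In R625H and K666T the quotients of IFIT1, IFIT3 and IFIT5 lay between 1.03 and 1.14, within the 5th to 95th percentile of the genes in the same library. Those of IFIT2 were lower, 0.802 (0.592 to 1.11) and 0.784 (0.572 to 1.09), with 98.7 and 98.5% of the genes at or above them, although the counting intervals include 1. The members have fewer matched introns (7 over the 4 genes) than the genes they are set against. Among the antiviral effectors, feedback genes, sensors and transcription factors described below that met the same limits, the quotient in K700E ran from 0.545 to 2.36. OASL, IFI44, RSAD2 and TRIM21, each close to a member in pattern, had 1.06, 1.08, 0.933 and 1.09. Over whole libraries, junction reads per 100 gene reads were 79.2 in WT and 85.7 in K700E; the part of this difference in the IFIT values was not tested.

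**Figure D3:**
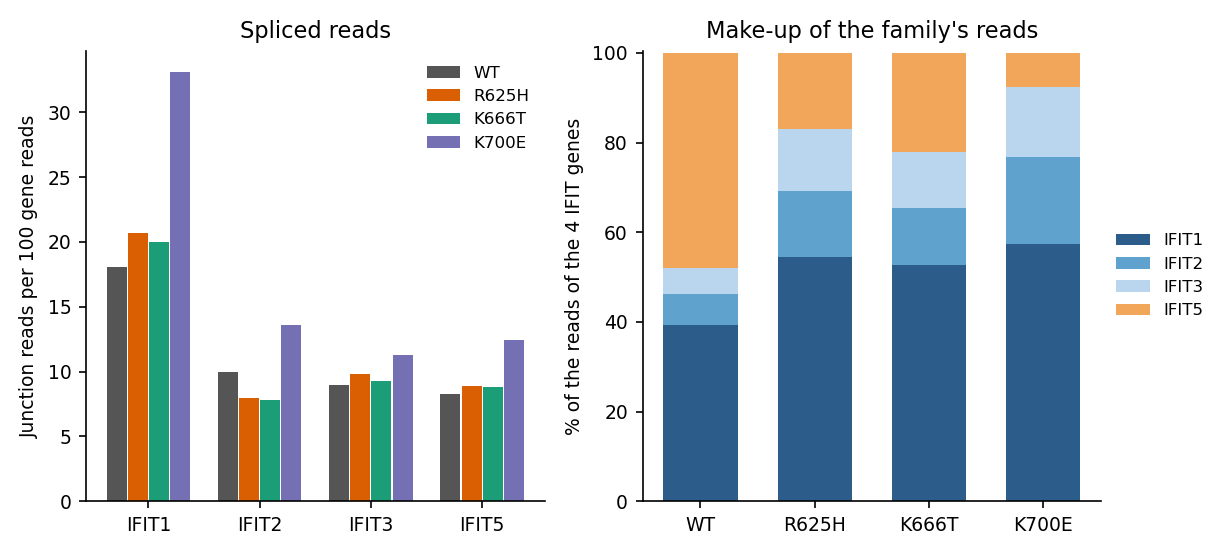
Left, uniquely mapped junction reads per 100 gene reads of each IFIT gene, 1 bar per library; right, the percent of the reads of the 4 genes that each gene holds in each library. IFIT1 in K700E stands out on the left at 33.1, and the part of IFIT5 on the right is 48.0% in WT and 7.5% in K700E.

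IFIT3 has 2 annotated first exons, each with its own start shown above, and both are joined to the same last exon, with the intron ending at 91098417 (hg19, chromosome 10). The intron of the upstream first exon begins at 91087836 and had 1872 reads in K700E, 308 in R625H, 193 in K666T and 30 in WT. That of the downstream first exon begins at 91092385 and had 1084, 85, 61 and 5 reads. The downstream exon supplied 36.7% of the reads of both in K700E (Wilson interval 35.0 to 38.4), 24% in K666T (19.2 to 29.6), 21.6% in R625H (17.8 to 26.0) and 14.3% in WT (6.26 to 29.4). K700E lay above the other 3 libraries with no overlap of the intervals, while WT, R625H and K666T overlapped. Scaled to all junction reads, the downstream exon was 219.6-fold (93.8 to 677.6) and the upstream exon 63.2-fold (44.1 to 93.9) higher in K700E than in WT, and 11.8-fold (9.49 to 14.9) against 5.64-fold (5.0 to 6.38) higher in K700E than in R625H. The WT value of the downstream exon rests on 5 reads. Reads with several map positions were left out. Summed over junctions, they made up 22.2% of the junction reads of IFIT3 in WT and 10.8 to 11.8% in the mutants. With them the downstream share was 37.6% in K700E, 26.9% in K666T, 24.6% in R625H and 22.2% in WT, so K700E was again the highest. Their counts on the upstream and downstream introns were equal or nearly so: 5 and 5 in WT, 23 and 23 in R625H, 16 and 16 in K666T, 117 and 113 in K700E. The same reads may thus be listed on both introns, which would count a read more than once and draw the downstream shares upward. The shares with them are therefore no separate check.

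IFIT1 transcripts were mostly joined from the first donor (intron from 91152475) to the last exon (intron end 91162037), which took 28949 of 31245 reads of that donor in K700E, 3101 of 3300 in R625H, 2177 of 2339 in K666T and 431 of 466 in WT. The shares are 92.7% (92.4 to 92.9), 94.0% (93.1 to 94.7), 93.1% (92.0 to 94.0) and 92.5% (89.7 to 94.6); R625H and K700E did not overlap, and the other pairs did. An internal acceptor at 91159651, not among the matched GENCODE introns, took 5.03, 4.36, 4.66 and 4.94% in the same order, with overlapping intervals. The internal exon it opens was joined onward to the last exon (intron 91159761 to 91162037) by 1203, 128, 106 and 22 reads. The share of the main junction thus lay within 92.5 to 94.0% in libraries whose IFIT1 level spanned 40.1-fold.

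Mutant SF3B1 is known for the use of cryptic acceptors a short way upstream of the usual one, so acceptors of IFIT1, IFIT2 and IFIT5 were examined for this. IFIT1 has a second acceptor 5 nt upstream of the internal one, at 91159646. Of the reads on this pair it held 544 of 2115 in K700E (25.7%, 23.9 to 27.6), 33 of 177 in R625H (18.6%, 13.6 to 25.0), 33 of 142 in K666T (23.2%, 17.1 to 30.8) and 10 of 33 in WT (30.3%, 17.4 to 47.3). The value of each mutant library was below that of WT, and all intervals overlapped; with 33 reads in WT a difference of this size is not detectable. As a share of all reads of the first donor, the upstream acceptor took 1.74% in K700E (1.6 to 1.89), 1.41% in K666T (1.01 to 1.97), 1.0% in R625H (0.713 to 1.4) and 2.15% in WT (1.17 to 3.9), and the intervals of K700E and R625H did not overlap. Further upstream, the same donor was joined to 91159608 by 11 reads in K700E, 5 in R625H and 4 in K666T. It was joined to 91159593 by 19, 2 and 2 reads, and to 91159617 by 3 in K700E only. WT had 0 on each, which its 466 reads of this donor are too few to set apart from such low shares. The first donors of IFIT2 and IFIT5 were joined to the annotated acceptor in 100.0% of their reads in WT (of 48 and 243 reads) and in at least 99.7% in each mutant library. Acceptors just upstream of the annotated ones had few unique reads. That at 91065693 in IFIT2 had 3 and that at 91162014 in IFIT1 had 2, both in K700E only, and that at 91176944 in IFIT5 had 1 in R625H only. WT had 0 on each, at the donor depths of 48, 466 and 243 reads for IFIT2, IFIT1 and IFIT5. IFIT5 also had junctions from other donors, such as that from 91177309 to 91177820 with 54 reads in K700E, 32 in R625H, 25 in K666T and 9 in WT. Over all its junctions, the annotated intron of IFIT5 held 88.4% of reads in K700E (86.8 to 89.9), 81.5% in K666T (77.7 to 84.8), 78.2% in R625H (74.3 to 81.7) and 88.7% in WT (84.4 to 91.9). The interval of R625H did not overlap those of WT and K700E, and that of K666T overlapped WT but not K700E. These shares count every junction, also gaps inside the last exon with short overhangs. A gap of 94 nt had 23 reads in R625H, 25 in K666T and 0 in WT and K700E, with a longest overhang of 15 nt. Another of 144 nt had 44, 27, 22 and 85 reads in R625H, K666T, WT and K700E, with at most 7 nt. The overhang filter was not applied to these shares, and the part of the gaps in them was not tested. The shares of the first donor of IFIT5 given above, at least 99.7% in every library, leave these gaps out.

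**Figure D4:**
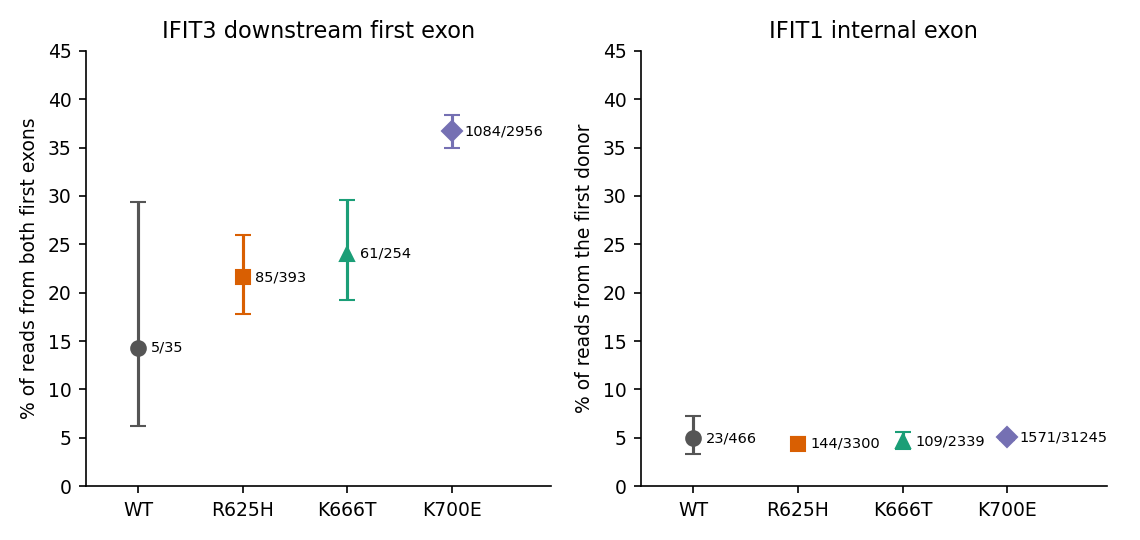
Left, percent of reads into the last exon of IFIT3 that come from its downstream first exon; right, percent of reads of the first donor of IFIT1 that enter its internal exon at 91159651. Points are libraries, bars are Wilson 95% intervals and labels give reads of total reads; the left share is highest in K700E at 36.7% and the right share stays between 4.36 and 5.03%.

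Genes beside the family on chromosome 10 stayed near their WT level. Of 6 neighbours that could be compared, none was 2-fold higher or lower in any mutant library. Their medians were -0.1, 0.01 and 0.07 (log2) in R625H, K666T and K700E. Over all genes, 0.653, 0.694 and 1.31% were 2-fold higher in these libraries and 0.0269, 0.00674 and 0.451% were 2-fold lower. The count of neighbours thus does not set them apart from other genes. LIPA, the lysosomal acid lipase gene, lies on the opposite strand across the family and had 112.1 CPM in K700E, 100.3 in R625H, 102.6 in K666T and 112.2 in WT. Reads on the wrong strand of the 4 members came to at most 51 for 1 gene and library, that of IFIT5 in WT. STAMBPL1, a deubiquitinase gene, had the lowest ratio in K700E, at -0.45, and FAS, the death receptor gene, the highest, at 0.32.

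Among the genes that act ahead of the family, interferon beta and RNA helicases were higher in the mutant libraries and the receptors were within 2-fold of WT. IFNB1, interferon beta, counted 362 reads in K700E, 67 in R625H, 57 in K666T and 8 in WT. With the prior count of 10 its log2 ratios to WT were 4.46, 2.19 and 1.94. The prior exceeds its WT count and draws these ratios toward 0. It alone of 8 interferon genes passed the minimum of 1 CPM, and only through K700E. The other log2 ratios are given in the order R625H, K666T and K700E. Of 7 sensors and adaptors compared, 3, 2 and 3 were at least 2-fold higher in R625H, K666T and K700E, beside 0.653, 0.694 and 1.31% of all genes. The sensors that passed were the RNA helicases RIGI (2.25, 1.84 and 4.29), IFIH1 (1.43, 1.22 and 3.23) and, in R625H and K700E, DHX58 (1.11, 0.95 and 3.0). DHX58, at 0.77 CPM in WT, met the minimum of 1 CPM only through mutant libraries. The adaptor MAVS had -0.13, -0.11 and -0.04. All 8 interferon receptor and kinase genes stayed within 2-fold in all 3 mutant libraries, with medians of 0.04, 0.04 and 0.01. So did nearly all genes compared, by the shares given above.

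Of 7 transcription factors compared, 2 were at least 2-fold higher in R625H, 1 in K666T and 4 in K700E, beside 0.653, 0.694 and 1.31% of all genes. STAT2 had log2 ratios of 0.31, 0.18 and 1.41, and IRF7, which amplifies interferon transcription, 1.6, 1.47 and 3.14. IRF7 was at 0.803 CPM in WT, so it passed the minimum of 1 CPM only through mutant libraries. IRF9 had 1.0, 0.89 and 1.68 from 95 WT reads, with 814.7 junction reads per 100 gene reads in WT, so its gene count is far below its spliced reads and its level is uncertain. IRF3, the factor that acts first, was at -0.08, -0.07 and 0.11.

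Other interferon-induced genes covered the range of the members. Of 23 antiviral effectors compared, 18, 13 and 20 were at least 2-fold higher, with medians of 1.52, 1.22 and 3.69. Over all genes, 0.653, 0.694 and 1.31% passed, with medians of -0.017, -0.002 and 0.0. Some effectors passed the minimum of 1 CPM only through mutant libraries. Among them were OAS1 and OAS2, both at 0.308 CPM in WT, MX2 at 0.077 and XAF1 at 0.033. Above IFIT2 in K700E were the antiviral enzyme gene RSAD2 (7.15) and the oligoadenylate synthetase genes OAS2 (6.84) and OAS1 (6.43). Of 6 feedback genes compared, 2, 1 and 5 passed, among them the ubiquitin-like modifier ISG15 (2.54, 2.14 and 4.4), its protease USP18 (0.44, 0.28 and 1.54) and its ligase HERC5 (0.59, 0.45 and 2.08).

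Genes for the cap and for protein partners of IFIT were mostly within 2-fold of WT. Among 7 genes of cap formation and cap removal, none was 2-fold apart in any mutant library, and CMTR1, which methylates the first ribose after the cap, had -0.09, -0.08 and 0.26. Of 13 subunit genes of eIF3, the initiation factor that IFIT1 and IFIT2 bind, 0, 0 and 1 were 2-fold higher and none 2-fold lower. Over all genes, 0.653, 0.694 and 1.31% were 2-fold higher in R625H, K666T and K700E, and 0.0269, 0.00674 and 0.451% were 2-fold lower. Lying within 2-fold of WT therefore does not set these lists apart from other genes. EIF3E had -0.48, -0.3 and -0.39. The 1 subunit gene past 2-fold was EIF3C, at 1.29 in K700E, which has a near-identical copy and is uncertain.

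**Figure D5:**
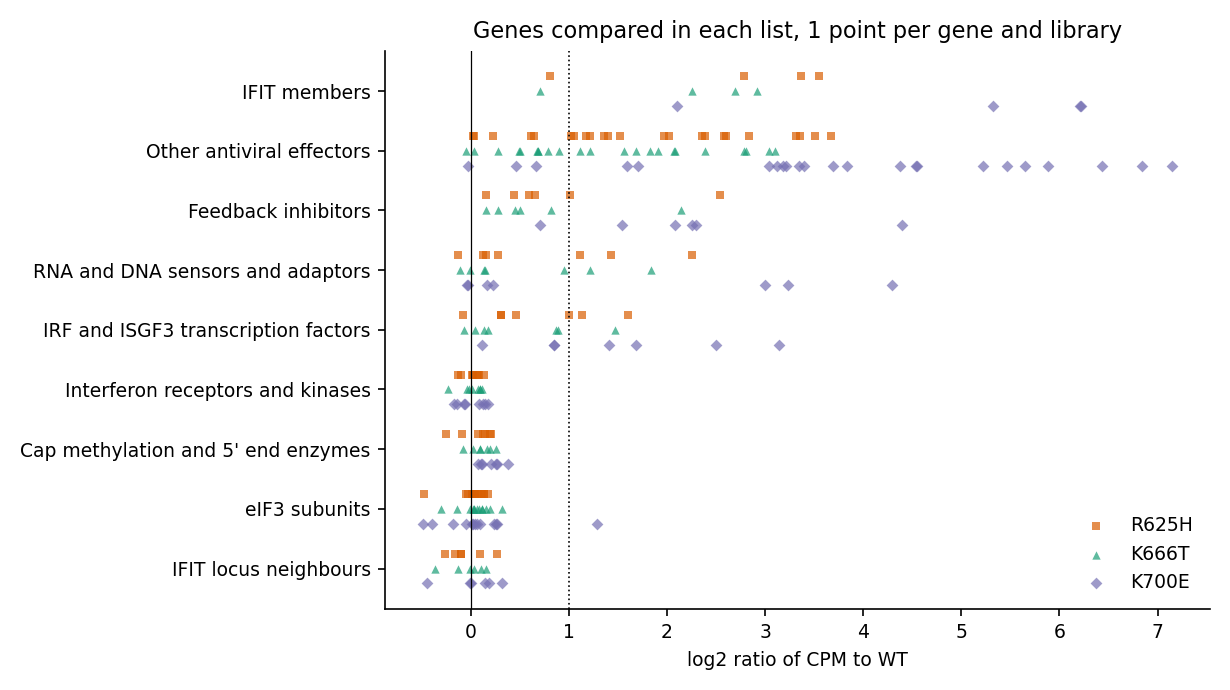
Log2 ratio of CPM to WT (x axis) of each gene compared in 9 gene lists (rows), 1 point per gene and mutant library, with lines at 0 and at 2-fold (dotted). IFIT1, IFIT2 and IFIT3 lie among the highest antiviral effectors in K700E, and the receptor, cap enzyme and neighbour lists stay between the 2-fold limits.

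By pattern, the genes closest to each member were those with the smallest root mean square difference of the 3 log2 ratios to WT, a description over 4 libraries that share WT. IFIT2 and IFIT3 were 0.17 apart, and IFIT3 was the closest of all genes to IFIT2, followed by IFI44, OAS1, OAS2 and ENSG00000161570, an ID that the name table does not hold, at 0.2 to 0.48. OAS1 was the closest to IFIT3, at 0.16, with IFIT2, IFI44, OAS2 and RSAD2 next. IFIT1 was closest to OASL, at 0.12, then to the chemokine gene CXCL10 at 0.17, to ENSG00000161570 at 0.22, and to MX2 and XAF1, which had 7 and 3 reads in WT, at 0.23 and 0.39. The prior count of 10 exceeds these WT reads of MX2 and XAF1 and draws their ratios toward 0, so their nearness to IFIT1 depends on it. It also lowers the ratios of OAS1 and OAS2, with 28 reads each in WT. Patterns were not recomputed with a smaller prior. IFIT5 was 2.36, 3.03 and 3.13 from IFIT1, IFIT2 and IFIT3, and its closest genes were PLSCR1, a phospholipid scramblase, at 0.11, the ISG15-activating enzyme gene UBA7 at 0.13, C2CD4A at 0.16, and the ubiquitin ligase TRIM21 and APOL2, both at 0.18. PLSCR1 had log2 ratios of 0.74, 0.54 and 2.05 beside 0.81, 0.71 and 2.1 for IFIT5.

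Gene reads numbered between 82254731 and 90939945 per library, and junction reads between 66015665 and 72034388. Unmapped pairs made up 8.84% in WT and 15.17 to 17.31% in the mutant libraries; their part in the levels of the IFIT genes was not tested. Of 9 HEK293 markers 7 were paired with an ID, and their summed level was 1309 to 1404 CPM, with NEFM between 329.1 and 427.8 CPM. The 10 markers of blood cells summed to 3.2 to 4.1 CPM, and PTPRC, the pan-leukocyte antigen gene, had 3 to 8 reads per library.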

How the data were processed

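RNA sequencing of HEK293T cells with 1 library per SF3B1 vector was used; groups follow the labels. The authors deposited raw counts of reads per gene and per splice junction; the submitters' processing notes name hg19 (GRCh37), HTSeq and STAR 2.5.3a. The annotation release and the task of HTSeq were not given in the sources used here. A stranded mRNA kit was used per the labels' protocols, so column 4, the strand opposite to read 1, was taken. Library sizes leave out the rows without a gene (unmapped 8.84 to 17.31%, multimapping 4.01 to 4.4%, no feature 5.01 to 5.87%, ambiguous 3.04 to 3.43% of pairs). The junction files' deposited overhang (nt) served as a filter only.

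CPM, log2 ratios (prior count 10, scaled to library size) and intervals (Poisson; exact conditional binomial for folds; Wilson for shares) were computed with Python 3.11.15 and scipy 1.17.1 and checked on simulated data. Genes needed 1 CPM in 1 library. With 1 library per group there was no test. The labels name no molecular identifiers, and PCR copies are not independent molecules, so the intervals cover counting error only. The name table held 51996 of the 57820 IDs. Because the files mark nearly every junction as annotated, GENCODE 29 introns (GRCh38) were matched to hg19 junctions by length; 7 of 11 introns of the IFIT locus fell together, against 1 at the next best offset. Junction positions are the first and last intron base. Exon lengths are GENCODE 29 unions.

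The members and gene lists were chosen with earlier results of these data known. Named genes are the members, fixed genes of each list, up to 4 per list with the largest ratio in K700E, and 5 genes per member with the closest pattern; MAVS and PTPRC were named after their values were seen. Alternatives were TMM (edgeR 4.0.16) and DESeq2 1.42.0 size factors, unstranded counts, a prior of 1, other folds, junction reads, no filter, and other junction filters.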

Additional observations from a re-analysis of the deposited data

How the results depend on the processing

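The counts of members at least 2-fold higher moved by no more than 1.5 times under TMM factors, DESeq2 size factors, unstranded counts, a prior count of 1, junction reads and a 4-fold threshold. Leaving out the CPM filter could not change these counts, because all 4 members pass it, so that setting is no check. With a 1.5-fold threshold, 2 members rather than 0 were higher in R625H than in K666T. No log2 ratio of a member changed sign. The largest change was 0.03 under TMM factors and under DESeq2 size factors, 0.01 with unstranded counts, 0.04 with a prior count of 1 and 0.73 with junction reads (IFIT1, K700E to WT). In K700E, adding multi-mapped reads gave 92.2% for the annotated junction of IFIT1, 99.6% for that of IFIT2 and 98.7% for that of IFIT5, and dropping junctions under 10 reads gave 100.0% for IFIT5. Of the 5 genes closest in pattern, centred log2 CPM kept 4 for IFIT1, 5 for IFIT2, 3 for IFIT3 and 4 for IFIT5. No paired analysis was possible because each group has 1 library. Depth limits the junction shares in WT, where IFIT3 has 35 junction reads and IFIT2 48.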

Other observations

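Junctions inside the last exons of IFIT1 and IFIT5 were read in some libraries only. In IFIT1, an intron-like gap of 122 nt (hg19 chromosome 10, 91162531 to 91162652) had 47 reads in R625H and 0 in the other 3 libraries, and a gap of 172 nt with GC-AG ends (91162921 to 91163092) had 272 reads in K700E and 0 elsewhere. In IFIT5, a gap of 94 nt (91177056 to 91177149) had 23 reads in R625H and 25 in K666T and 0 in WT and K700E, with a longest overhang of 15 nt, and 1 of 105 nt (91179099 to 91179203) had 18 reads in K700E only. A junction that a library's file does not list is given as 0. A further gap of 144 nt in IFIT5 (91177431 to 91177574) was read in all 4 libraries, 22, 44, 27 and 85 times in WT, R625H, K666T and K700E, with a longest overhang of at most 7 nt. These junctions were picked after their values were seen.

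Reads also joined the first donor of IFIT1 to the acceptor of the last exon of IFIT5 (91152475 to 91176961), with 1 unique read in R625H and 3 in K700E beside 21 and 58 multi-mapped reads. Over all promoters, the genes compared with at least 1 core motif in a RefSeq promoter window numbered 414, IFIT1, IFIT3 and IFIT5 among them. Of these, 9.42% were at least 2-fold higher in K700E than in WT, against 0.556% of 10604 genes that had a window but no motif. Genes without a window in the promoter table, IFIT2 among them, are in neither group. Over all 14847 genes compared, the share was 1.31%.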
